A study of Arabidopsis thaliana with 72 samples.

Results

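The clock mutant toc1-1 was set against untreated wild type in the subjective night, the hours of constant light that would have been dark had the earlier light cycle gone on. The arrays were chosen by their labels alone, as those titled toc1-1 or untreated wild type at 61, 65, 69, 85, 89 and 93 h, which are hours 13, 17 and 21 when counted modulo 24. They are 24 of the 72 arrays of the series, 12 of toc1-1 and 12 of untreated seedlings, and each group holds 2 replicate time courses. Arabidopsis seedlings were raised for 11 days at 19 °C with 12 h of light a day, kept in constant light after that, and their aerial tissue was hybridised to Affymetrix ATH1 arrays. The toc1-1 seedlings carry an EMS-induced mutation in the gene At5g61380, and the labels give no background accession for them, while the untreated seedlings are C24 wild type with no treatment. The plates held 150 to 200 toc1-1 seeds or 70 to 100 C24 seeds. The labels of untreated replicate 1 also give an earlier growth stage and days and nights of 12 h, while those of untreated replicate 2 and of both toc1-1 replicates give the same later stage and constant light. Genotype, seed number and, in replicate 1, the labelled stage and light differ between the groups together and cannot be told apart.

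The plant circadian clock is a network of genes that repress each other in turn over the day, and it drives a large share of leaf transcripts. TOC1, the gene altered in toc1-1, encodes a pseudo-response regulator that accumulates around dusk and represses genes of the morning during the night. The toc1-1 mutant is known for a short circadian period, so that in constant light its rhythms run ahead of those of wild type.

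The deposited values are signals on a linear scale, with the trimmed mean of each array set to 100. The median signal of a night array was 34.1 to 37.0 in toc1-1 and 32.6 to 38.0 in untreated seedlings, and replicates of a time correlated at 0.971 to 0.985 across probe sets. RNA integrity can be read from control probe sets at both ends of a transcript: for actin, log2 of the 3-prime over the 5-prime signal was 1.43 ± 0.30 in toc1-1 and 1.11 ± 0.14 in untreated seedlings (SD, n = 12 each), and for ubiquitin 0.87 ± 0.20 in toc1-1 and 0.69 ± 0.12 in untreated seedlings. The control for 25S ribosomal RNA stood at 8.56 ± 1.07 in toc1-1 and 7.90 ± 1.3 in untreated seedlings on the log2 scale (SD, n = 12 each), and the untreated array of 85 h, replicate 2, was highest with 11.05. The aerial markers RCA, PRK and SBPASE, enzymes of the Calvin cycle or its activation, had summed signals of 9826 to 12070 in toc1-1 and 9015 to 15390 in untreated seedlings. In the night test described below, PRK was lower in toc1-1 (log2 difference -0.19 ± 0.06, SE; adjusted p = 0.0218, limma). RCA and SBPASE had an adjusted p above 0.05. No probe set carries the name of the mutated gene in the annotation used here, so its own level is not reported.

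Over the whole subjective night, many transcripts differed by a little and few by much. Each probe set was compared on the scale log2(signal + 16), time by time, in a limma fit, and a call means a Benjamini-Hochberg adjusted p under 0.05 over the 13647 probe sets tested. A total of 4901 were called (35.9%), with 2720 higher in toc1-1 (19.9%) and 2181 lower (16.0%), and 45.3% had an unadjusted p under 0.05. The median absolute log2 difference of those called was 0.29, and the median difference of all probe sets tested was 0.03. Of those called, 185 had an estimate at least 1.5-fold higher (1.36%) and 258 one at least 1.5-fold lower (1.89%), and 28 (0.205%) and 41 (0.300%) reached 2-fold. A stricter test of whether the change itself exceeds 1.5-fold called 18 higher and 24 lower. In 60 probe sets (0.440%) the 12 toc1-1 arrays all lay above the 12 untreated ones, and in 83 (0.608%) all lay below. The direction was the same in both replicate time courses for 4891 of the calls (35.8% of the probe sets tested), which a call on both replicates together itself favours. Replicate 1 alone gave 661 higher and 770 lower, and replicate 2 alone, where the stage labels match, gave 1537 and 1312. The labels do not say that the replicates are separate batches of seedlings, so the p-values measure the spread between these samples only, and the number of arrays limits their precision.

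The nuclear transcripts that fell most in toc1-1 were those of root-type class III peroxidases, secreted enzymes that oxidise phenolics and wall proteins. AT4G26010 had signals of 0.696, 11.0 and 128 in toc1-1 (lowest, median and highest of 12 arrays), against 0.381, 144 and 362 in untreated seedlings. The groups overlapped through a single untreated array, that of 93 h in replicate 1, and through the toc1-1 array of 61 h in replicate 1. The log2 difference of AT4G26010 was -2.36 ± 0.30 (SE; adjusted p = 2.75e-06, limma), with -1.71 in replicate 1 and -3.0 in replicate 2, and it was lower in 11 of 12 pairs of arrays of the same time and replicate. Such pairs, here and below, match arrays by replicate number, to which the labels give no shared batch. Within a time the matching is arbitrary, and the pair counts only describe the values. AT5G17820 fell by 1.71 ± 0.26 on the same scale, with medians of 14.0 in toc1-1 and 115 in untreated seedlings. AT4G30170 fell by 1.31 ± 0.23 and AT3G01190 fell by 1.26 ± 0.21 (SE). Both had lower differences in replicate 2 (-1.93 and -1.80) than in replicate 1 (-0.69 and -0.73), and neither these genes nor AT5G17820 (-1.17) passed the test in replicate 1 alone. Of 73 class III peroxidases, a list written after such a fall had been seen in these data, 55 were named on the array and 28 tested. In toc1-1, 12 of the 28 fell and 3 rose, with a median log2 difference of -0.28, beside 16.0% lower, 19.9% higher and a median of 0.03 for all probe sets tested. The 3 that rose were AT5G64120 (0.56 ± 0.12), Prx37 (0.48 ± 0.11) and AT5G39580 (0.38 ± 0.10, SE each).

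**Figure D1:**
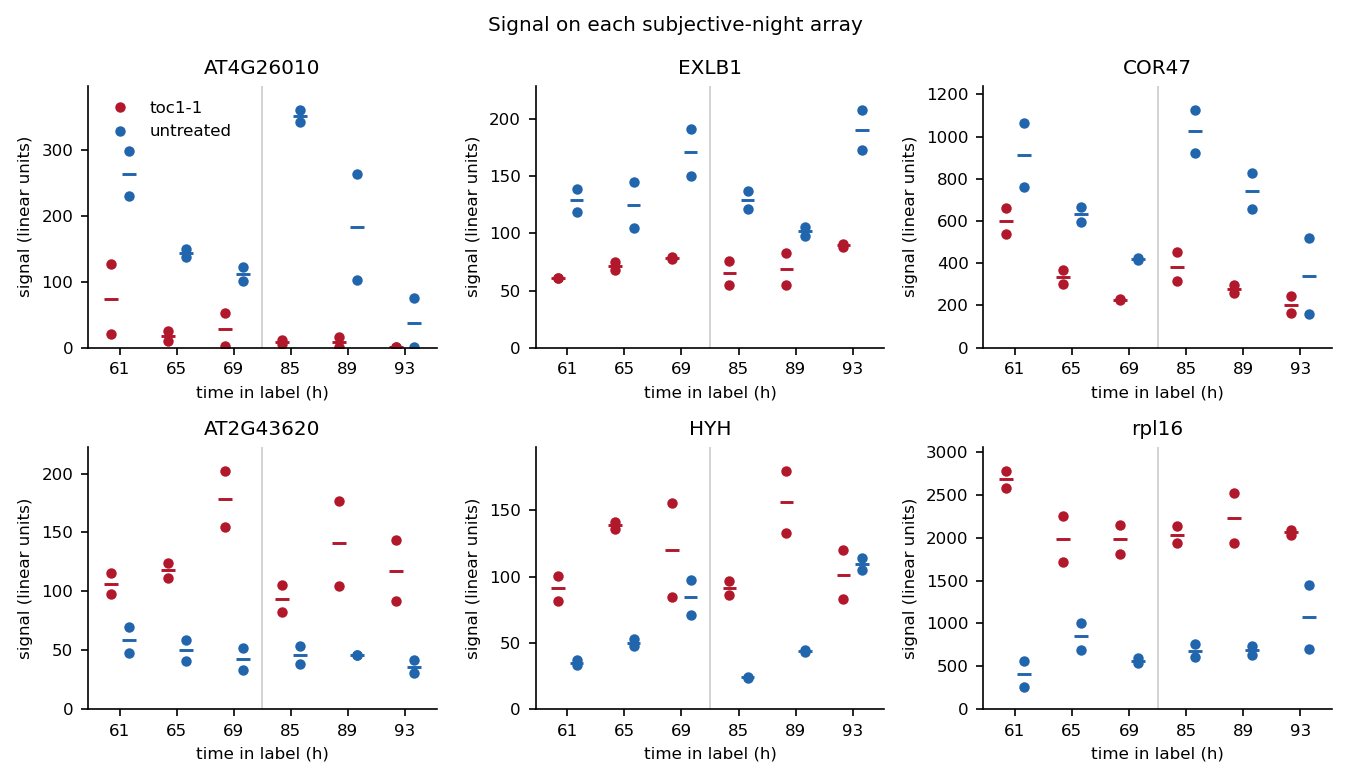
Signals of 6 genes on each subjective-night array, against the time in the label, with toc1-1 in red left of untreated in blue; points are arrays, short bars are the means of 2 replicates, and the grey line parts the first night of arrays from the second. AT4G26010, EXLB1 and COR47 were lower in toc1-1, AT2G43620 and rpl16 were higher on every array, and HYH was higher at 61, 65, 85 and 89 h but overlapped with untreated at 69 and 93 h.

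Root hair genes, markers of a cell type that aerial tissue should lack, were mostly too dim to test. The summed signal of 6 root hair genes (AT5G06630, AT1G30870, GH9C1, EXPA18, EXPA7 and XTH26) was 28.6, 63.0 and 174 in toc1-1 (lowest, median and highest), against 31.1, 221 and 486 in untreated seedlings. Of the 6, AT5G06630 alone entered the test, and it fell. EXPA18, an expansin of root hairs, had medians of 9.82 in toc1-1 and 37.5 in untreated seedlings, and EXPA7 had 3.95 in toc1-1 and 15.5 in untreated seedlings. PYK10, an abundant beta-glucosidase of roots and hypocotyls, had medians of 3508 in toc1-1 and 3443 in untreated seedlings and was not called (log2 difference 0.03 ± 0.11, SE). Fewer cells of a type and less RNA per cell cannot be told apart in such samples, and the part of root tissue in the fall of the peroxidases was not tested. The untreated array of 93 h in replicate 1 had a root hair sum of 31.1, while the other untreated arrays had 143 or more. Without it, 16 peroxidases fell, 3 rose, and the difference of AT4G26010 was -2.57. Over the 24 fits that left out 1 array, 11 to 16 peroxidases fell. The count was 11 without the untreated array of 85 h in replicate 2, whose root hair sum was 486.

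The 12 nuclear genes that fell most also held 2 genes of wall proteins. HRGP1, a hydroxyproline-rich structural protein of the wall, had signals of 13.6, 32.4 and 82.9 in toc1-1, against 19.8, 92.8 and 172 in untreated seedlings. It fell by 1.08 ± 0.15, and AT5G06630, an extensin-like gene, fell by 1.05 ± 0.15 (SE). Both were lower in 12 of 12 pairs, though the ranges of the groups overlapped, and both probe sets are of a type that can also bind related transcripts. Of 9 expansins tested, which loosen the wall during growth, 6 fell, 3 were not called and none rose, with a median of -0.40, beside 16.0% lower, 19.9% higher and a median of 0.03 for all probe sets tested. EXLB1 had 54.9, 75.3 and 90.6 in toc1-1, against 97.4, 138 and 208 in untreated seedlings, with no overlap. Its log2 difference was -0.81 ± 0.07 (SE; adjusted p = 3.49e-08, limma). EXPB3 (-0.54), EXPA4 (-0.55) and EXPA9 (-0.40) were likewise lower in 12 of 12 pairs. Of 5 xyloglucan endotransglucosylases, which cut and rejoin wall polymers, XTH19 fell by 0.87 ± 0.16, XTH33 rose by 0.21 ± 0.08 (SE each) and 3 were not called, with a median of -0.06.

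Outside the cell wall, BGLU28, a beta-glucosidase known to be induced by sulphur deficiency, had signals of 155, 516 and 856 in toc1-1, against 599, 939 and 1686 in untreated seedlings, a difference of -1.16 ± 0.19 (SE). In 11 of 12 pairs the toc1-1 array was the lower one. AT4G33960 was the only gene among the 12 lowest whose groups did not overlap, with 94.2 to 134 in toc1-1 and 173 to 307 in untreated seedlings (-0.97 ± 0.08, SE). AT3G28320 (-1.09 ± 0.13) and AT1G64360 (-1.0 ± 0.15) were lower in 12 of 12 pairs, and AT4G30670 (-1.07 ± 0.19) and the jacalin-like lectin gene AT2G25980 (-1.04 ± 0.17, SE each) in 11 of 12. AT4G30670 differed by -0.71 in replicate 1, where it was not called, and by -1.43 in replicate 2.

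Of the nuclear transcripts that rose most, AT1G80130, which encodes a protein with tetratricopeptide-like repeats, had signals of 204, 340 and 406 in toc1-1, against 42.8, 112 and 251 in untreated seedlings. It rose 2.79-fold (log2 difference 1.48 ± 0.14, SE; adjusted p = 3.49e-08, limma) and was higher in 12 of 12 pairs, though the lowest toc1-1 array lay below the highest untreated one. AT2G38240, an enzyme that oxidises and so inactivates the hormone jasmonate, had 42.3, 72.5 and 124 in toc1-1, against 1.82, 24.0 and 45.0 in untreated seedlings, and rose by 1.36 ± 0.14. AT2G43620, of the chitinase family, had 82.1 to 202 in toc1-1 and 30.9 to 70.0 in untreated seedlings, so that no array overlapped, and rose by 1.16 ± 0.11. BGLU46, a beta-glucosidase of lignin precursors, likewise did not overlap, with 41.0 to 96.0 in toc1-1 and 11.5 to 28.3 in untreated seedlings (0.97 ± 0.09, SE). The day differences of AT2G38240 (1.38), AT2G43620 (1.08) and BGLU46 (0.83) lay close to those of the night, while AT1G80130 stood higher at night than by day (0.66), by 0.82 ± 0.23 (SE; adjusted p = 0.0232, limma).

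HYH, a bZIP factor that promotes development in the light beside its homologue HY5, had 81.6, 111 and 180 in toc1-1, against 23.3, 46.2 and 114 in untreated seedlings. It rose by 0.92 ± 0.14 (SE) and was higher in 10 of 12 pairs. AT4G37550, of the formamidase family, rose by 1.07 ± 0.11, AT2G41250, a haloacid dehalogenase-like hydrolase, by 1.11 ± 0.11, and AT3G01060 by 0.90 ± 0.08 (SE each). APS4, an ATP sulphurylase of sulphate assimilation, had medians of 281 in toc1-1 and 142 in untreated seedlings (0.89 ± 0.10, SE), and AT4G27280, an EF-hand calcium-binding protein, had 334 and 176 (0.89 ± 0.11, SE). AT2G07695 rose by 1.03 ± 0.09 with no overlap, at 41.0 to 86.0 in toc1-1 and 14.6 to 29.0 in untreated seedlings. It lies among nuclear copies of mitochondrial genes, and its probe set can bind more than 1 transcript, so that its source is uncertain.

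**Figure D2:**
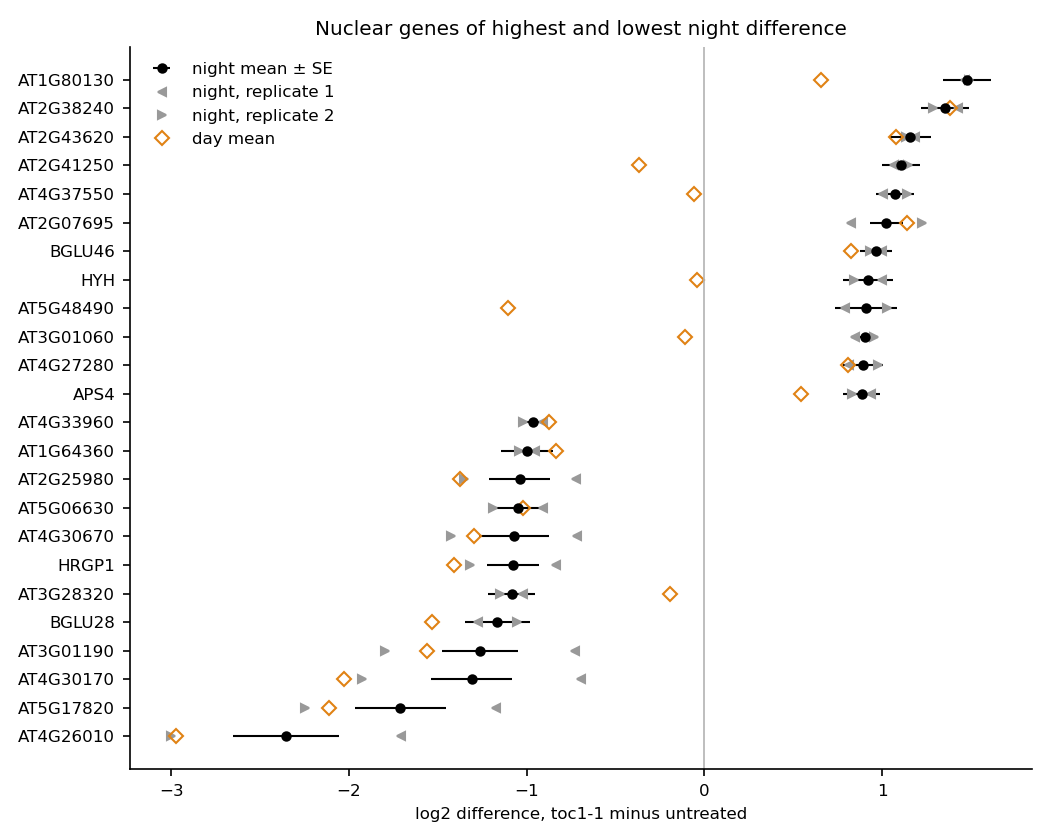
Log2 differences (toc1-1 minus untreated, on the log2(signal + 16) scale) of the 12 nuclear genes with the highest and the 12 with the lowest night difference, with the night mean and its SE, each replicate time course of the night, and the mean of the subjective day. The peroxidase genes lay lower in replicate 2 than in replicate 1, and HYH, AT2G41250, AT4G37550, AT5G48490 and AT3G01060 had a day difference at or below 0.

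Transcripts encoded in the plastid genome formed the other large group. Of 67 plastid-encoded genes tested, 30 rose and 7 fell in toc1-1, with a median log2 difference of 0.21, beside 19.9% higher and 16.0% lower among all probe sets. The plastid ribosomal protein gene rpl16 had 1714, 2111 and 2776 in toc1-1, against 253, 663 and 1453 in untreated seedlings, with no overlap. It rose 3.19-fold (1.67 ± 0.16, SE; adjusted p = 5.66e-08, limma). The genes of the plastid RNA polymerase rpoB (1.4 ± 0.17) and rpoC1 (1.31 ± 0.13) rose, and so did psbC (1.44 ± 0.16) and psbD (1.2 ± 0.16, SE each), which encode an antenna and a reaction centre protein of photosystem II. Subunits of the NDH complex (ndhG 0.84, ndhJ 0.51 and ndhE 0.47) and of the cytochrome b6f complex (petL 0.70, petG 0.60 and petA 0.37) were among the others that rose.

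The 7 plastid genes that fell included all 4 members of the psbE, psbF, psbL and psbJ group, small subunits of photosystem II transcribed together. psbJ had 361, 510 and 674 in toc1-1, against 459, 779 and 1107 in untreated seedlings (-0.53 ± 0.10), and psbE (-0.50 ± 0.10), psbF (-0.39 ± 0.09) and psbL (-0.36 ± 0.10, SE each) lay close to it. psaC, an iron-sulphur subunit of photosystem I, had 489, 544 and 880 in toc1-1, against 622, 922 and 1304 in untreated seedlings. It fell by 0.67 ± 0.09 (SE) and was lower in 12 of 12 pairs. The ribosomal protein genes rps18 (-0.40 ± 0.13) and rpl33 (-0.42 ± 0.15, SE each) also fell, and rpl33 lost its call in 5 of the 24 fits that left out 1 array.

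The rises of plastid genes were mostly larger in replicate 2: rpoB rose by 0.88 in replicate 1 and 1.92 in replicate 2, psbB by 0.20 and 1.37, and psbT differed by -0.01 and 1.01 and atpI by -0.04 and 0.81. The 25S ribosomal RNA control also stood higher in replicate 2, at 9.35 ± 0.98 in toc1-1 and 8.53 ± 1.54 in untreated seedlings, against 7.76 ± 0.19 and 7.27 ± 0.63 for the same groups in replicate 1 (SD, n = 6 each, log2), and the 3-prime to 5-prime ratios above were higher in toc1-1. Their part in the plastid rises was not tested. Of 8 mitochondrion-encoded genes tested, 5 rose and none fell, beside 19.9% higher and 16.0% lower among all probe sets, led by nad4 (0.94 ± 0.11), a subunit of complex I, and cox1 (0.80 ± 0.11, SE each), a subunit of cytochrome oxidase. The 5 nuclear-encoded photosystem subunits tested had differences of -0.10 to 0.14, all with an adjusted p above 0.05.

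**Figure D3:**
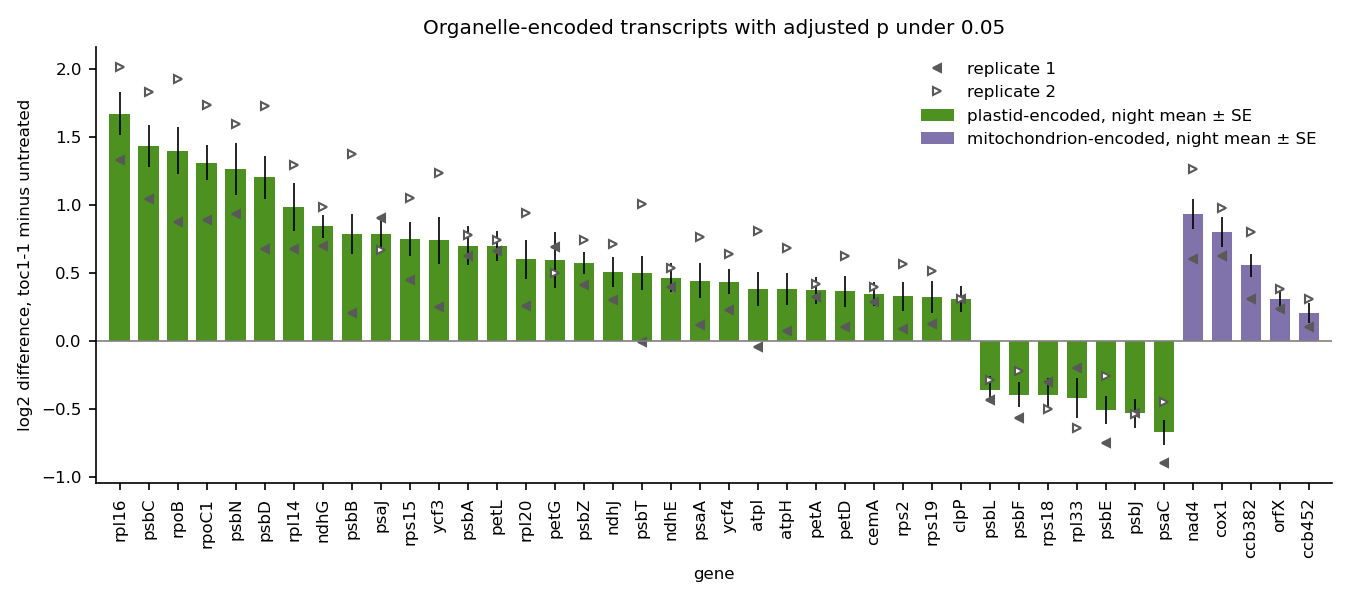
Night log2 differences (toc1-1 minus untreated) of the plastid-encoded (green) and mitochondrion-encoded (purple) genes with an adjusted p under 0.05, as bars with SE, and the value of each replicate time course as a triangle. Of the plastid genes 30 lie above 0 and 7 below, and the 5 mitochondrial genes lie above 0.

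Of the clock genes, 3 were named and tested. GI, a component of the evening, was not called over the night as a whole (-0.27 ± 0.23; adjusted p = 0.391, limma), TIC, a nuclear regulator of the clock, fell by 0.29 ± 0.08, and RVE6 (AT5G52660), a MYB-like activator, differed by -0.15 ± 0.06 (adjusted p = 0.0525). All 5 clock output genes tested were called, beside 35.9% of all probe sets. CCL, a strongly cycling gene of unknown function, had 660, 1304 and 2005 in toc1-1, against 1049, 2503 and 4016 in untreated seedlings (-0.81 ± 0.13). COR27 (-0.65 ± 0.17) and COR28 (AT4G33980, -0.47 ± 0.09), which repress clock genes and are induced by cold, fell, while CDF5 (AT1G69570, 0.45 ± 0.10), a repressor of flowering genes, and AFR (0.33 ± 0.09, SE each), an F-box protein of far-red light signalling, rose.

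Of 5 cold-response genes tested, 1 rose, 2 fell and 2 were not called (19.9% higher and 16.0% lower among all probe sets). COR47, a dehydrin, had 162, 299 and 660 in toc1-1, against 159, 662 and 1127 in untreated seedlings. It fell by 0.93 ± 0.14 (SE) and was lower in 11 of 12 pairs, and LTI30, another dehydrin, fell by 0.59 ± 0.21. ZAT10, listed as STZ, a zinc-finger repressor of stress responses, rose by 0.38 ± 0.12 (SE). COR15A (-0.15 ± 0.24; adjusted p = 0.643) and COR15B (-0.30 ± 0.20, SE each; adjusted p = 0.245), cold-induced chloroplast proteins, were not called over the night as a whole. GH3.5 (listed as WES1, -0.41 ± 0.10) and GH3.3 (-0.38 ± 0.12), enzymes that join auxin to amino acids, and EXPA8 (-0.47 ± 0.14, SE each) were the 3 tested genes of the auxin and growth list, and all fell, beside 16.0% of all probe sets.

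Among larger families, the UDP-glycosyltransferases, which attach sugars to small molecules, had 7 of 28 tested genes higher and 3 lower, with a median of 0.05, near the 19.9%, 16.0% and 0.03 of all probe sets tested. UGT88A1 rose by 0.55 ± 0.09 and UGT84A3, which glucosylates hydroxycinnamic acids, fell by 0.54 ± 0.06 (SE each), at 61.3 to 92.0 in toc1-1 and 93.6 to 170 in untreated seedlings with no overlap. Of 13 cytochrome P450 genes 4 rose and 1 fell, beside the same shares of 19.9% and 16.0%, and CYP71B36 rose by 0.73 ± 0.08 with no overlap, at 69.1 to 99.5 in toc1-1 and 30.0 to 61.6 in untreated seedlings. Of 5 WRKY factors, regulators of defence and senescence, 3 rose and none fell (19.9% and 16.0% of all probe sets), and WRKY53 was higher in 12 of 12 pairs (0.60 ± 0.10, SE). Of 6 calcium-linked genes tested, 3 rose and 2 fell, beside those same shares: the glutamate receptor-like channels GLR3.3 (0.37 ± 0.06) and GLR1.4 (0.25 ± 0.08) and the calmodulin-like CML41 (0.28 ± 0.10) rose, while CML30 (-0.42 ± 0.08) and CML42 (-0.33 ± 0.08, SE each) fell. Of 7 SWEET sugar transporters 3 fell and none rose, beside 16.0% lower and 19.9% higher among all probe sets, among them SWEET11, which exports sucrose towards the phloem (-0.36 ± 0.07, SE).

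Of the 9 tested beta-glucosidases 1 rose and 4 fell, and of 9 glutathione S-transferases 1 rose and 2 fell, beside 19.9% higher and 16.0% lower among all probe sets, with GSTU26 at -0.60 ± 0.10 (SE). One of 9 ATG8 autophagy genes tested, ATG8D, fell by 0.22 ± 0.08, and the auxin repressor gene IAA18 rose by 0.25 ± 0.06 (SE each). The lists of starch breakdown (2 genes), starch synthesis (3), light harvesting (3), chlorophyll synthesis (3), flavonoids (5), dark-induced genes (3), defence (2) and nuclear-encoded photosystem subunits (5) were put together because no member was called over the night. The 0 calls among their 26 tested genes (limma) follow from that choice and cannot be weighed against the 35.9% of all probe sets. Of the 26, 6 had an unadjusted p under 0.05, against 45.3% of all probe sets, a share that the same choice lowers. These short lists hold the members that the annotation names, and they do not stand for whole pathways.

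Whether a difference belonged to the night was asked by testing the night difference against that of the subjective day, over the 48 arrays of night and day together. Most of the called night differences kept their sign by day: of the 4901 called at night, 4434 had the same sign in the day, and the median absolute day difference of the 4901 was 0.26. The share of same signs over all probe sets tested is not given here, so the 4434 stand without that background. The night differed from the day in 695 probe sets (5.09%), 334 of them higher at night (2.45%) and 361 lower (2.65%), and 15.1% had an unadjusted p under 0.05. In 508 of the 695 the night and day differences had opposite signs, which selection on night minus day itself favours. Of the 695, 401 were also called over the night, beside 35.9% of all probe sets tested. Both tests hold the night difference of the same arrays, which itself favours such an overlap.

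AT5G48490, of the DIR1-like lipid-transfer proteins, had the highest night-minus-day value, 2.01 ± 0.27 (SE; adjusted p = 2.36e-06, limma), from a night difference of 0.91 and a day difference of -1.10. Its signals at hours 13, 17 and 21 averaged 570 ± 355, 1025 ± 382 and 1285 ± 119 in toc1-1, against 234 ± 25.3, 335 ± 144 and 1170 ± 339 in untreated seedlings (SD, n = 4 arrays over 2 nights). At hour 5 of the subjective day it averaged 428 ± 146 in toc1-1 and 1369 ± 173 in untreated seedlings. The toc1-1 mean was thus above the untreated one at hours 13 and 17, both were high at hour 21, and toc1-1 was the lower one at hour 5. AT5G15950, an S-adenosylmethionine decarboxylase of polyamine synthesis (0.87 at night and -0.69 by day), AT2G15020 (0.45 and -1.27), AT1G55960, with a lipid-binding START domain (0.61 and -0.91), AT2G41250 (1.11 and -0.37) and AT1G64500, a glutaredoxin-like gene (0.65 and -0.50), had the same order of signs. HYH belonged here too, with 0.92 at night and -0.04 by day, a difference of 0.96 ± 0.19 (SE; adjusted p = 0.000923, limma).

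COR27 had the lowest night-minus-day value, -1.96 ± 0.27 (SE; adjusted p = 3.44e-06, limma), with -0.65 at night and 1.31 by day. Its signals averaged 119 ± 43.4 in toc1-1 and 12.6 ± 4.03 in untreated seedlings at hour 5, and 121 ± 8.62 in toc1-1 and 241 ± 72.8 in untreated seedlings at hour 13 (SD, n = 4). Its highest hourly mean stood at hour 9 in toc1-1 and at hour 13 in untreated seedlings. CCL (-0.81 at night and 0.90 by day), COR28 (-0.47 and 0.70), AT1G07050, a gene with the CCT motif of CONSTANS-like proteins (-0.62 and 1.25), AT3G62550 (-0.80 and 0.96), AT4G16146 (-0.31 and 1.35) and AT4G32340 (-0.72 and 0.75) were likewise lower in toc1-1 at night and higher by day. All 5 clock outputs tested were called in this comparison, and so were both tested genes of starch breakdown, DPE1, which rearranges short glucans (-0.25 and 0.44, night minus day -0.69 ± 0.17), and PWD, which phosphorylates starch (-0.16 and 0.39, -0.55 ± 0.17, SE each). LHCB4.2, an antenna protein of photosystem II, had 0.40 at night and -0.56 by day (0.97 ± 0.23, SE). Of the 109 plastid-encoded, peroxidase, expansin and WRKY genes tested, 0 were called in the night against day comparison (limma), and 9 had an unadjusted p under 0.05, against 5.09% called and 15.1% with such a p among all probe sets. These 4 lists were picked for this count, and lists with calls, such as the beta-glucosidases (2 of 9 tested), were left out. The 0 thus depends on the choice of lists.

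**Figure D4:**
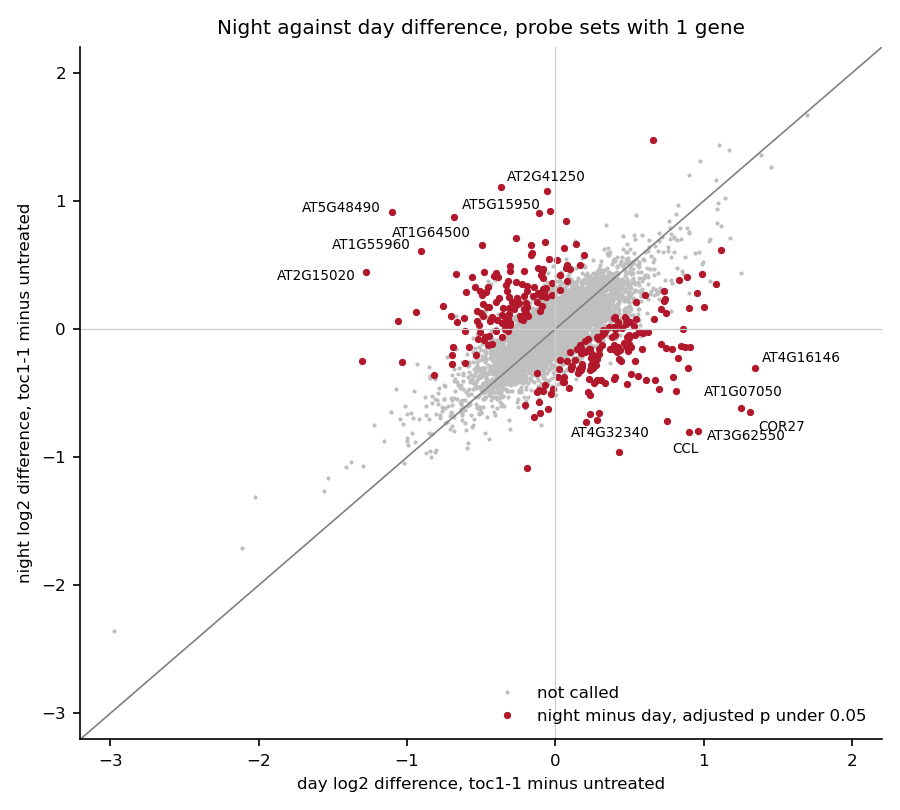
Night log2 difference against day log2 difference (toc1-1 minus untreated) for the 7282 tested probe sets with 1 gene, with those called in the night-minus-day test in red and the genes of the most extreme values named; the grey line marks equal differences. Most points follow the line, while COR27, CCL and AT1G07050 lie to the lower right and AT5G48490 and AT5G15950 to the upper left.

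Within the night, the difference between the groups could also change with the hour, which was tested by a moderated F test over hours 13, 17 and 21. It was called in 217 probe sets (1.59%), with 12.2% at an unadjusted p under 0.05. In 185 of the 217 the sign differed between hour 13 and hour 21, a turn that selection on a change over the hours itself favours. Of the 217, 82 were also called in the mean over the night, beside 35.9% of all probe sets tested. The count of 217 rests on few arrays: it was 0 in replicate 1 alone and 69 in replicate 2 alone. Leaving out single arrays moved it to 330 without untreated 61 h, replicate 1, to 137 without untreated 93 h, replicate 1, to 111 and 130 without toc1-1 93 h, replicates 1 and 2, and to 110 without toc1-1 69 h, replicate 2.

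GI shows the pattern. Its signals averaged 92.1 ± 20.3, 46.5 ± 11.4 and 92.8 ± 32.1 in toc1-1 at hours 13, 17 and 21, against 212 ± 28.8, 95.4 ± 29.4 and 33.2 ± 11.0 in untreated seedlings (SD, n = 4). The toc1-1 mean was therefore lower at hours 13 and 17 and higher at hour 21, with log2 differences of -1.09, -0.82 and 1.11 (adjusted p = 0.000278, limma F test). COR15B, a cold-induced protein of the chloroplast, had -0.83, -0.87 and 0.79, and THI2.2, a thionin of plant defence, -0.93, -0.63 and 1.09. CYP71B26, a cytochrome P450, averaged 85.2 ± 10.9, 99.6 ± 31.5 and 206 ± 29.0 in toc1-1, against 114 ± 7.04, 68.8 ± 11.6 and 65.5 ± 7.34 in untreated seedlings, so that the toc1-1 signal was the higher one from hour 17.

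The reverse order was seen in 4 other genes with a large range over the 3 hours. AT5G42760, a leucine carboxyl methyltransferase-like gene, averaged 134 ± 67.1, 208 ± 28.5 and 150 ± 40.4 in toc1-1, against 44.7 ± 8.21, 118 ± 20.0 and 269 ± 19.0 in untreated seedlings (SD, n = 4). Its difference was 1.2, 0.75 and -0.81. AT2G27420, a cysteine protease, had 1.01, 0.24 and -1.06, and 2 genes of pectin metabolism, AT1G60590 (0.65, -0.67 and -1.13) and AT1G23205, an inhibitor-like protein (0.46, -0.59 and -1.23), turned from higher to lower in toc1-1 by hour 17. Among other list members, GH3.5 (-0.76, -0.52 and 0.04), XTH19 (-1.66, -0.69 and -0.27) and LHCB4.2 (-0.36, 1.04 and 0.54) were called in this test. So were the peroxidases AT2G22420 (0.56, 0.22 and -0.72) and AT4G08780 (0.06, -0.42 and 0.61). XTH18 (-0.57, -0.18 and 0.235) and SBPASE (0.52, 0.11 and -0.21) were called as well.

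**Figure D5:**
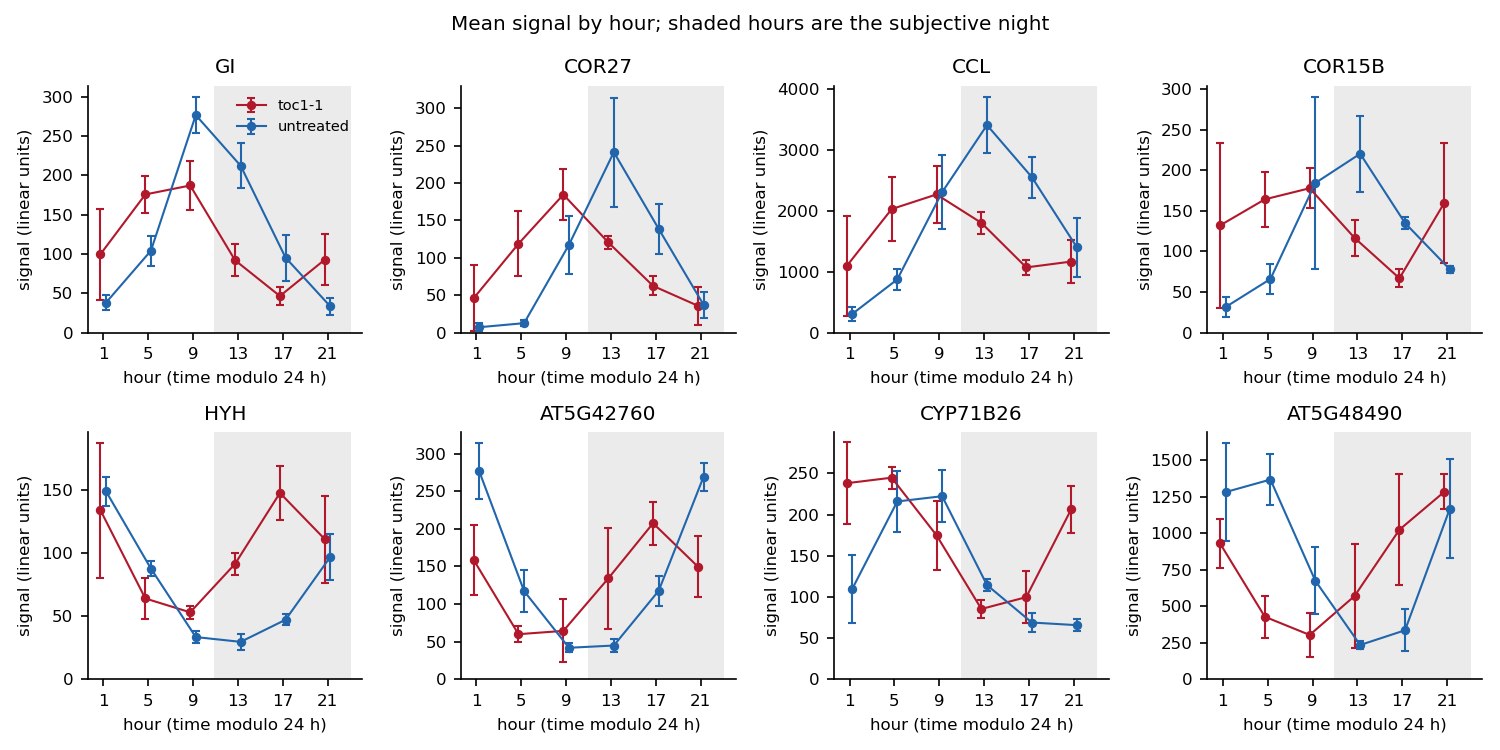
Mean signal by hour (time modulo 24 h) of 8 genes, with toc1-1 in red and untreated in blue; points are means of 4 arrays (2 cycles and 2 replicates), bars are SD, and the shaded hours 13, 17 and 21 are the subjective night. GI, COR27, CCL and COR15B were lower in toc1-1 at hours 13 and 17, HYH, AT5G42760 and AT5G48490 were higher there, and CYP71B26 stood highest above untreated at hour 21.

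The second of these nights (85, 89 and 93 h) was also set against the first (61, 65 and 69 h). No probe set was called higher or lower in the second minus first night difference (0%, limma), and 604 had an unadjusted p under 0.05 (4.43%). AT1G80130 differed by 1.34 in the first night and 1.62 in the second, HYH by 0.90 and 0.94, CCL by -0.78 and -0.83, and GI by -0.35 and -0.18. With 6 arrays of each group in a night, changes between the nights that are smaller than the spread of these arrays were not detectable.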

How the data were processed

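ATH1 arrays of toc1-1 and untreated seedlings at 6 night times were compared, and the day arrays of the same groups entered only the night against day test. The deposited intensity values are linear signals. Per the submitters' processing notes, the authors used MAS5 and GCOS, with versions not given in the sources used here, and each array's trimmed mean is 100. They were not normalized again. Without the 64 control probe sets, 13647 of 22810 entered the tests, those in the upper 60% by their mean log2 value across the 72 arrays. The scale was log2(signal + 16), on which changes of dim genes come out too small. The fits used limma 3.58.1 in R 4.3.3 (lmFit, eBayes with trend) with time as a block and Benjamini-Hochberg adjustment over all probe sets tested: the night mean difference, night minus day, an F test over the 3 night hours, and second minus first night. The script was tested on simulated data.

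The platform annotation pairs 13513 probe sets with 1 gene, 503 with several and 8794 with none listed, and only those with 1 gene are named. Of the 305 entries of the pathway lists, 103 were named and 70 tested. A gene with several tested probe sets was taken by the one with the highest mean; of 67 such genes 3 were called both ways. Named by rule were the genes called in the same direction in both replicates with the 12 highest and 12 lowest nuclear and the 4 highest and 4 lowest organelle differences, the 6 at each end of night minus day, the 8 with the widest range over the hours, and up to 4 genes of each list by adjusted p; further list members were chosen after their values were seen. The members and lists were chosen with earlier results of these data known. Alternatives changed the normalization, pseudocount, filter, threshold, block and the arrays used. Sequence motifs were not analysed here.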

Additional observations from a re-analysis of the deposited data

Results flagged for a closer look

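Differences that changed between the subjective night and day, or over the hours of the night, in a test of that change, were picked out here; each is a limma result with an adjusted p under 0.05 and a difference of toc1-1 minus untreated on the log2(signal + 16) scale. The night minus day value was 2.01 for AT5G48490, 1.72 for AT2G15020, 1.56 for AT5G15950, 1.52 for AT1G55960, 1.47 for AT2G41250 and 1.15 for AT1G64500. At the other end it was -1.96 for COR27, -1.87 for AT1G07050, -1.76 for AT3G62550, -1.71 for CCL, -1.65 for AT4G16146 and -1.47 for AT4G32340. The range of the difference over hours 13, 17 and 21 was 2.2 for GI, 2.08 for AT2G27420, 2.02 for THI2.2, 2.01 for AT5G42760, 1.81 for CYP71B26, 1.78 for AT1G60590, 1.70 for AT1G23205 and 1.66 for COR15B. All 8 of these hourly changes lost the call when replicate 2 was left out, and 5 of the 12 night minus day changes did.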

How the results depend on the processing

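None of the 32 genes named for the night, the 12 for night minus day and the 8 for the hours changed direction under an alternative run. Runs that changed only the threshold, the minimum fold, the filter, the trend, the block or the use of all 72 arrays kept the same estimates. Such runs could not reverse a direction. For the 32, the runs on replicate 1 or replicate 2 alone could not reverse it either, since the naming rule asked for the same direction in both. The direction of other list members was followed only within each replicate, where psbT and atpI, called over both, stood at -0.01 and -0.04 in replicate 1. The night counts of 2720 higher and 2181 lower stayed within 1.5 times under quantile normalization (2583 and 2402), other pseudocounts, other filters, a fit without trend and a random block. With an adjusted p under 0.01 they were 1643 and 1450, with a test against 1.5-fold 18 and 24, and with all 72 arrays in the fit 1606 were higher. The hours count of 217 was 142 without the filter on low values and 333 with the replicate block. The labels give no shared batch to replicates of a number, and their deviations from the group means correlated at -0.26 to 0.27 over the 6 times. The fits therefore did not take the numbers as pairs, and the pair counts given above are descriptive. With the replicate block the night gave 2879 higher and 2285 lower, night minus day 351 and 394, and second minus first night 0. Leaving out arrays, a replicate or a replicate of a group gave 661 to 2780 higher and 770 to 2234 lower at night, 22 to 68 list members higher and 19 to 59 lower (62 and 52 with all arrays), 43 to 249 higher and 46 to 315 lower in night minus day (334 and 361), 0 to 330 over the hours and 0 to 1 in second minus first night. The single call of the last appeared without untreated 93 h, replicate 1, and without toc1-1 replicate 2. Of 752 values of the 32 genes named for the night, 716 kept their call and 36 lost it, and 13 of the genes kept it in each of the settings in which they were tested, since dim genes drop out of the test in some of the 24. Of the night minus day genes 7 of 12 kept theirs in each setting that tested them, and of the hours genes 0 of 8. Genes with signals near or below the pseudocount, such as AT4G26010, AT5G17820 and AT3G01190 in toc1-1, are compressed on this scale, and the low values of EXPA7 and XTH26 were not tested.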
